A study of Homo sapiens with 2 samples.

Results

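Several Pumilio elements lay under RNA peaks of both libraries in the 3′ UTRs of SLC38A2, PLCXD1, TBX1, CEP97, CCDC12, MFSD14A, TBC1D14, XIAP, TBX3 and TAOK1. These 10 mRNAs were selected on these same libraries because at least 3 elements of each 3′ UTR were covered, out of 20048 genes with a peak and 2324 protein-coding genes with both an element and a 3′ UTR peak in each library. Covered here means that at least 1 nt of the element lay under a peak of the gene on the same strand in each library. The overlap used in the selection itself is not stated. By the definition used here 14 mRNAs had 3 or more covered elements, and the 4 not selected are counted among the other mRNAs below. The labels put both libraries, replicate 1 and replicate 2, in the group TRACER and do not explain that word. Each was made from cytoplasmic RNA of HEK293T, a human cell line derived from embryonic kidney. All cells had been given doxycycline at 3 ug/mL for 24 hours. Doxycycline often serves to induce a transgene, and the labels name no such gene and no untreated, input or control library. The study asked which sequences within RNA associate with the CCR4-NOT complex. Whether the replicates came from separate cultures is not stated, and their spread may be technical.

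Pumilio proteins bind the 3′ UTRs of messenger RNAs through a domain built of repeats, each of which contacts a base of the element UGUANAUA, where N is any base. They are known as repressors that bring CCR4-NOT, the main complex that shortens poly(A) tails, to the bound mRNA, which is then translated less and decays sooner. In animals, Nanos proteins can bind next to a Pumilio protein on the same mRNA, and the long non-coding RNA NORAD is known to hold many Pumilio elements. The 10 mRNAs encode proteins of several kinds. SLC38A2 is a sodium-coupled transporter of neutral amino acids that is induced when amino acids are scarce. TBX1 and TBX3 are T-box transcription factors of embryonic development. XIAP inhibits caspases, the proteases of apoptosis, and TAOK1 is a kinase of stress signalling. CEP97 is a centrosome protein that restrains the growth of cilia, TBC1D14 is a TBC-domain protein that acts in autophagy, and CCDC12 is found in the spliceosome. MFSD14A belongs to a large superfamily of membrane transporters, and PLCXD1 carries a phospholipase C X domain.

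The following stretches show covered elements that had another covered element within 35 nt, since 24 of the 36 covered elements had a neighbouring element that close. Each stretch is 30 nt of the GENCODE 29 transcript, written 5′ to 3′, with the element in capitals. Elements are numbered from the stop codon, and further elements of the same stretch stay in lower case.
TBX1 element 3: cauguagauacUGUAGAUAcuguagauacc
CCDC12 element 2: guacauaugucUGUAUAUAuguauauauuu
CEP97 element 3: auauaaucguuUGUAUAUAuguaaauaacu
SLC38A2 element 2: ccauauguauuUGUAAAUAgguuguauaua
SLC38A2 element 5: uauuaacuuugUGUAUAUAguguaaauauc
PLCXD1 element 2: augugucugugUGUAUAUAuguguauauau
TBC1D14 element 2: uauuuucuuacUGUACAUAaagauguuccu
TBX3 element 3: acauagcucugUGUAAAUAgaauugcaacu

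The next stretches show covered elements that were the only covered element of their peak region, from the mRNAs in which elements were spread out and from the lone sites of TBC1D14 and TBX3.
MFSD14A element 1: gauaucuauuaUGUAGAUAaauauauauag
MFSD14A element 3: cuuaaaagaaaUGUAAAUAuucuguuaaua
TBC1D14 element 3: cuuuuuugaauUGUAAAUAggugguuuuau
XIAP element 3: gguguagugagUGUAUAUAaugugauuugg
TAOK1 element 7: caauggucggaUGUAAAUAacauuuaaagu
TBX3 element 1: uugauaacucuUGUAAAUAgguggaauaug

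The last stretches show the weakest covered element, XIAP element 4, and elements of these mRNAs that were not under peaks of both libraries, so that their letters can be compared with those of covered elements. SLC38A2 element 4 lay under a peak of replicate 2 alone, and the others lay under no peak. On GRCh38 they lie at chr12:46358657-46358664 (minus strand) for SLC38A2, at chrX:300495-300502 and chrX:300691-300698 for PLCXD1, at chrX:123907548-123907555 for XIAP, and at chr17:29544647-29544654 and chr17:29546707-29546714 for TAOK1 (plus strand for the last 3 genes). All of these carried U in place of N, and TAOK1 element 1, under no peak and with C there, is not shown.
XIAP element 4: auacuaugggaUGUAUAUAuaucauugcug
SLC38A2 element 4: uuggguucaagUGUAUAUAuuccuguaagu
PLCXD1 element 5: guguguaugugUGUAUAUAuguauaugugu
PLCXD1 element 7: gcguguguaugUGUAUAUAuauauaugugu
XIAP element 1: auggagcuuucUGUAUAUAaauguggagau
TAOK1 element 2: uuuccauuucuUGUAUAUAaauuguguugg
TAOK1 element 4: uauguauauauUGUAUAUAcauaugagugu

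The 10 3′ UTRs held 46 elements, of which 36 were covered, 2 lay under a peak of replicate 2 alone and 8 lay under no peak. In 3742 elements of the other mRNAs, the covered share was 22.1% (exact 95% binomial interval 20.8 to 23.5), and over all 3788 elements it was 22.8%. The members' count of 36 follows from how they were chosen and is not evidence about Pumilio elements. Peaks of both libraries took up 2.60% of the bases of all 6128 3′ UTRs with a peak in each library. At least 1 element was covered in 748 of the 2324 mRNAs with an element, or 32.2%. At least 3 were covered in 14 of the 321 mRNAs with 3 or more elements, or 4.36%. Among those 321 mRNAs, 187 had no covered element, 88 had 1 and 32 had 2. Intervals here cover counting error only, and elements of the same 3′ UTR share their gene, peaks and RNA level.

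TBX1 had its elements in tandem. Its gene lies on the plus strand at chr22:19756703-19783593 (GRCh38), and its representative 3′ UTR is 467 nt long. All 4 of its elements carried G at the variable position and started 388, 398, 407 and 416 nt into the 3′ UTR, so that they followed each other at steps of 10, 9 and 9 nt. A single region of 68 nt at chr22:19767235-19767302, ending 32 nt before the end of the 3′ UTR, held all of them. The reads given for a region are those of its strongest peak in each library, here 78 reads in replicate 1 and 108 in replicate 2. A further peak of 9 reads adjoined it in replicate 2. The summit lay 5 nt upstream of the centre of the 4 elements in replicate 1 and 4 nt upstream in replicate 2, among the elements rather than beside them. No other region of this 3′ UTR was under peaks of both libraries.

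CCDC12 resembled TBX1 in having a short 3′ UTR whose elements lay together. The gene lies on the minus strand at chr3:46921726-46982010, and the 3′ UTR of 331 nt had 3 elements at positions 241, 253 and 261. Elements 2 and 3 abut, as the stretch of CCDC12 element 2 shows. The region at chr3:46921766-46921829 had 16 reads in replicate 1 and 32 in replicate 2, with the summit 3 nt upstream of the centre in each library. These 3′ UTR reads were a small share of the mRNA's peak reads, 6.11% in replicate 1 and 8.83% in replicate 2, since the CDS held 246 and 410 reads in the same libraries. CCDC12 had the lowest such share of the 10 mRNAs.

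SLC38A2 had the strongest peaks. The gene lies on the minus strand at chr12:46358189-46372867, and its 3′ UTR of 2922 nt had 6 elements, all in its 3′ part. Elements 1 to 3, at positions 2372, 2401 and 2412, lay in a region of 94 nt at chr12:46358651-46358744 with 183 reads in replicate 1 and 212 in replicate 2. Elements 5 and 6, at positions 2781 and 2790, lay in a region of 125 nt at chr12:46358287-46358411, under peaks of 112 and 145 reads. This region also held an adjoining upstream peak without an element in each library, and its peaks summed to 186 and 254 reads. Element 4, at position 2447, lay under the replicate 2 peak of the upstream region but 3 nt beyond the edge of the replicate 1 peak. The summit of the first region lay 10 and 12 nt downstream of the centre of the 3 elements, on the second of them, and that of the peak on elements 5 and 6 lay 2.5 nt upstream of their centre in each library. All 4 of these summits fell inside an element.

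PLCXD1 had the most elements of the 10 mRNAs and a run of GU and AU repeats around them. The gene lies on the plus strand at chrX:276322-303356, in the pseudoautosomal region, and its identical Y copy was left out. All 8 elements carried U at the variable position. Elements 1 to 4, at positions 1042, 1070, 1080 and 1094, lay in a region of 90 nt at chrX:300366-300455 with 31 reads in replicate 1 and 54 in replicate 2. Elements 5, 6 and 7, at positions 1160, 1316 and 1356, lay under no peak, and element 8 at position 1372 lay under a replicate 2 peak of 6 reads. Element 7 lay 67 nt from the nearest peak in replicate 1 and 1 nt from it in replicate 2. The uncovered elements thus had the same letters UGUAUAUA as the covered ones. The reversed element AUANAUGU, which has the same base composition, occurred 10 times in this 3′ UTR and was covered 4 times. No other gene had 3 or more covered reversed elements, and of all reversed elements 6.58% were covered.

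In CEP97, TBC1D14 and TBX3 the covered elements fell into a pair of regions each. CEP97, on the plus strand at chr3:101723925-101770562, had elements at positions 2262 and 2280 and at 3422 and 3430, the second pair abutting. Its regions, chr3:101767797-101767885 and chr3:101768920-101769045, were weak, with 7 reads in each library for the upstream region and 13 and 8 reads for the downstream region. The summits of CEP97 lay farther from the elements than those of TBX1 or CCDC12, at 25 and 11 nt downstream of the centre upstream, and at 17 nt before and 30 nt after it downstream.

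TBC1D14, on the plus strand at chr4:6909242-7033118, had elements at 1934 and 1951 under peaks of 23 and 10 reads at chr4:7032313-7032380, and a lone element at 2677 under stronger peaks of 59 and 77 reads at chr4:7033005-7033093. The summit of the lone element fell on its centre in each library, and that region ended 18 nt before the end of the 3′ UTR. Here the single element had more reads than the pair in each library. TBX3, on the minus strand at chr12:114670254-114684164, had a lone element at 936 under peaks of 16 and 23 reads at chr12:114670862-114670940. Its pair at 990 and 1004 lay in the adjoining region chr12:114670770-114670861, with 5 reads in replicate 1 and 37 in replicate 2, the largest ratio between libraries among the 21 regions.

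MFSD14A, XIAP and TAOK1 had no close pairs of covered elements. MFSD14A, on the plus strand at chr1:100038097-100083377, had elements at positions 817, 1004 and 1115 of a 3′ UTR of 1168 nt. Their regions had 31 and 30 reads at chr1:100083019-100083082, 15 and 20 reads at chr1:100083196-100083241, and 28 and 29 reads at chr1:100083282-100083349. Counts were nearly the same in both libraries for the outer sites. Another region, chr1:100083110-100083188, had strongest peaks of 41 and 48 reads, and a further peak of 12 reads in replicate 1, without a full element. It held the core UGUANAU followed by another base.

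XIAP, on the plus strand at chrX:123859724-123913979, had 5 elements over 3′ UTR positions 367 to 3860 of 6798 nt. Element 2, at 1409, had 27 reads in replicate 1 and 30 in replicate 2, within chrX:123908562-123908618. Element 3, at 3108, had 31 and 38 reads within chrX:123910235-123910325, and element 5, at 3860, had 10 and 11 reads within chrX:123911001-123911061. Each of these was a single element with similar reads in both libraries. Element 4, at 3366, was the weakest covered element, with 4 nt under a peak of 5 reads in replicate 1 and 1 nt under a peak of 4 reads in replicate 2, at chrX:123910551-123910579. Element 1, at 367, lay 71 nt from the nearest peak in replicate 1 and 78 nt in replicate 2.

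TAOK1, on the plus strand at chr17:29390464-29551904, had the longest 3′ UTR, 8882 nt, and 7 elements. The 3 covered ones lay in its 3′ part, at 5395, 5688 and 7250. Element 5 had 8 and 6 reads at chr17:29548415-29548455, element 6 had 8 and 4 reads at chr17:29548686-29548785, and element 7 had 14 and 4 reads at chr17:29550245-29550330. The strongest peak of each was higher in replicate 1. The regions of elements 6 and 7 each had another replicate 2 peak of 4 reads beside the element, which brought their sums in that library to 8. TAOK1 as a whole had more peak reads in replicate 2, 119 against 70. The 4 upstream elements, at 256, 1625, 3676 and 3685, lay under no peak in either library. Element 4 lay 2 nt from a peak in replicate 1 and 6 nt from one in replicate 2, so its status rests on the edge of those peaks. Element 1 lay 1517 nt from the nearest peak in replicate 1 and 61 nt in replicate 2.

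**Figure D1:**
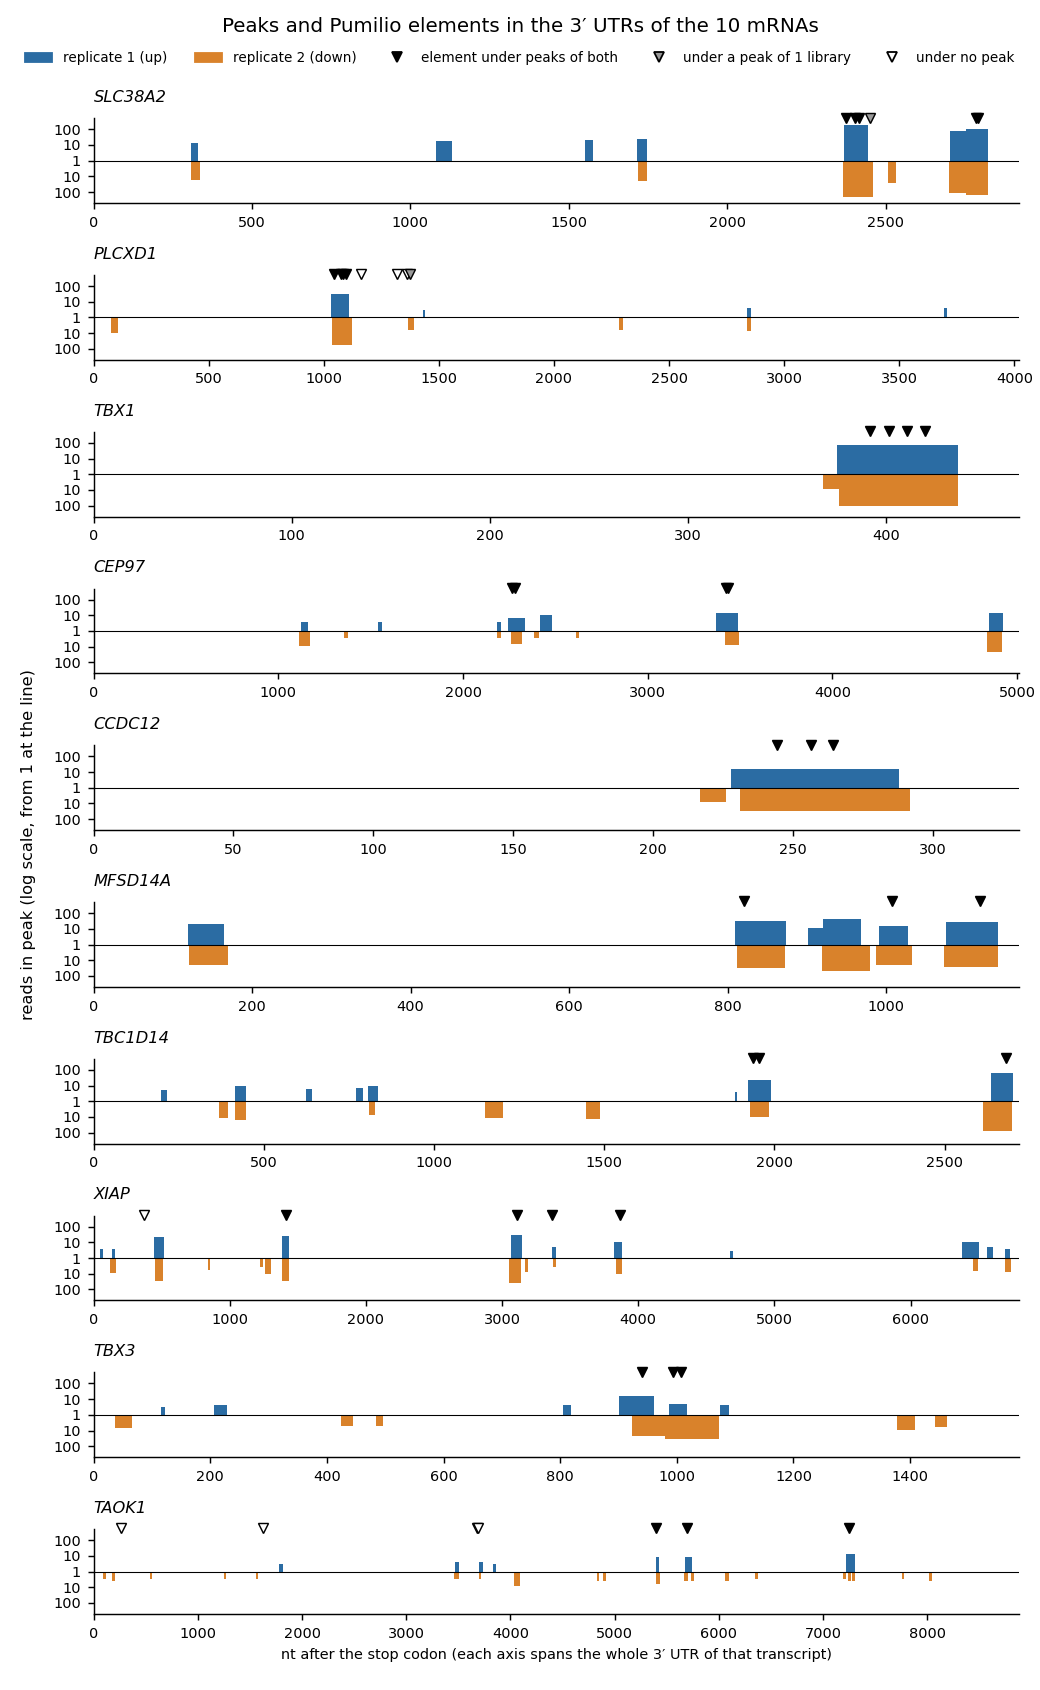
Maps of the 3′ UTRs of the 10 mRNAs, one panel each. The horizontal axis is nt after the stop codon, the height of each box is the reads of a peak on a log scale, with replicate 1 above the line and replicate 2 below it, and triangles mark Pumilio elements under peaks of both libraries (black), of 1 library (grey) or of none (open). The 4 elements of TBX1 sit in a single peak region, those of MFSD14A in 3 regions, and the open triangles of TAOK1 lie upstream of its covered elements.

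The 36 covered elements lay in 21 peak regions, where a region is the union of overlapping peaks of both libraries. Of these, 9 regions held more than 1 covered element and 24 elements between them, and 12 regions held a single one. PLCXD1, TBX1 and CCDC12 had 1 region each, SLC38A2, CEP97, TBC1D14 and TBX3 had 2, and MFSD14A, XIAP and TAOK1 had 3 or more. Between neighbouring covered elements of the same 3′ UTR there were 26 distances from start to start, with a median of 23 nt. They fell into 15 short distances of 8 to 29 nt and 11 long ones of 54 to 1699 nt. Of the short distances, 9 were 8 to 12 nt. Regions were 29 to 126 nt wide, with a median of 79 nt, so a region often spanned several elements and its reads cannot be divided between them.

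Regions with several covered elements had a median of 23 reads in replicate 1 and 37 in replicate 2, against 15.5 and 21.5 reads for regions with 1 covered element. The ranges overlapped widely, at 5 to 183 and 7 to 212 reads for the first kind and 5 to 59 and 4 to 77 reads for the second. The summit lay a median of 5 nt and 8.5 nt from the centre of the covered elements in regions with several, against 5.5 nt and 9 nt in regions with 1. It lay within 10 nt of that centre in 15 of 21 regions of replicate 1 and in 11 of replicate 2, and the largest distances were 25 and 30 nt. These medians were close, with no test made. Reads of the strongest peak were higher in replicate 2 in 13 regions, equal in 1 and higher in replicate 1 in 7. With all peaks of a region summed, these counts were 13, 2 and 6. The summed reads of all peaks were also higher in replicate 2, 1663907 against 1585446. The authors' p-value was at or under 1e-05 in both libraries for 15 of the 21 regions, and the share over all regions was not counted. With peaks above that p left out, 28 of the 36 covered elements of the 10 mRNAs stayed covered, against 467 of 828 in other mRNAs. When peaks above that p, or peaks under 10 reads, were left out, CEP97, TBX3 and TAOK1 had fewer than 3 covered elements and the other 7 mRNAs kept 3 or more.

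**Figure D2:**
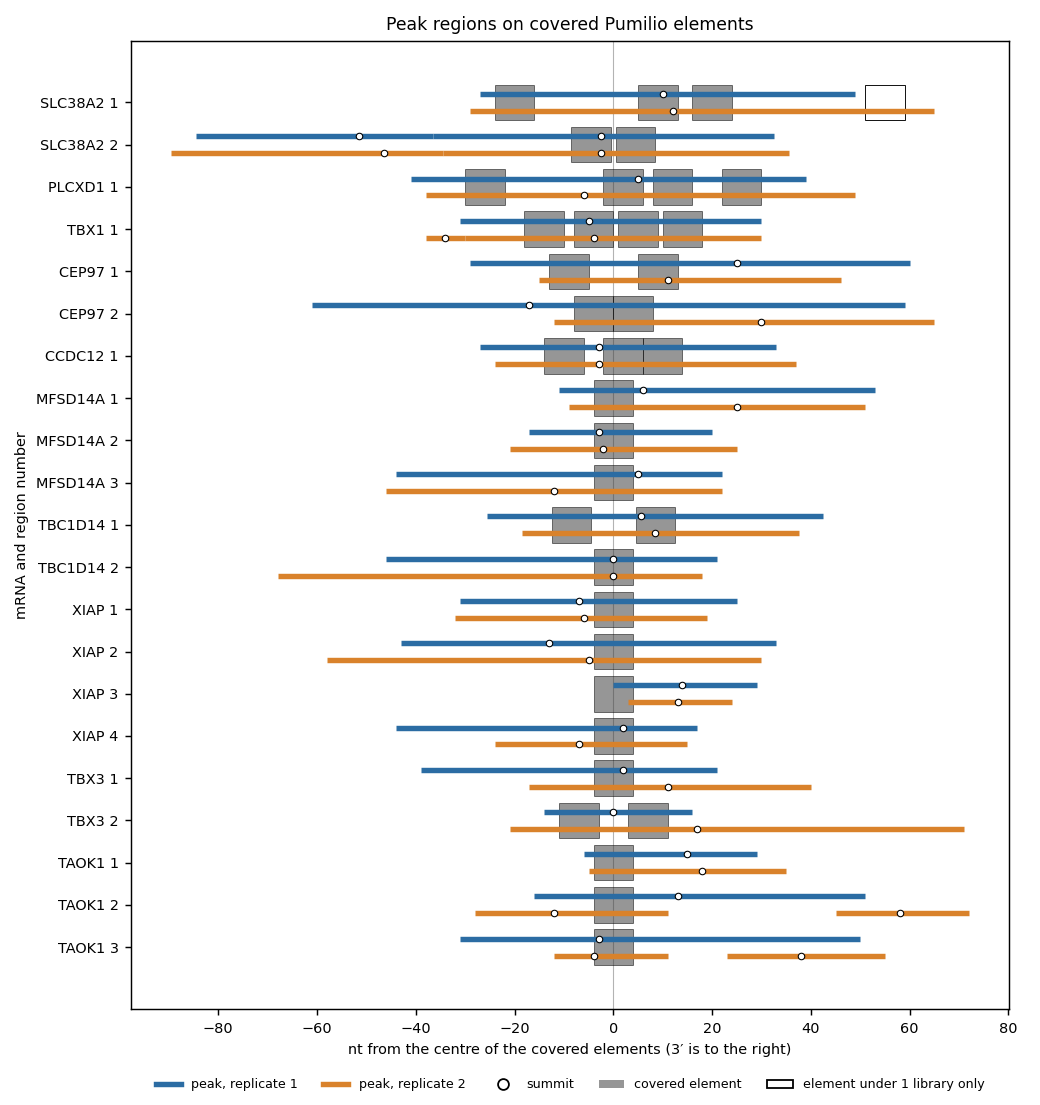
Peaks and elements of the 21 regions with a covered element, each centred on its covered elements. The horizontal axis is nt from that centre with 3′ to the right, lines are peaks of replicate 1 (blue) and replicate 2 (orange), circles are summits, grey boxes are covered elements and the open box is an element under 1 library. In 15 regions of replicate 1 and 11 of replicate 2 the summit of the strongest peak on the elements lies within 10 nt of the centre, and XIAP region 3 only touches its element.

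**Figure D3:**
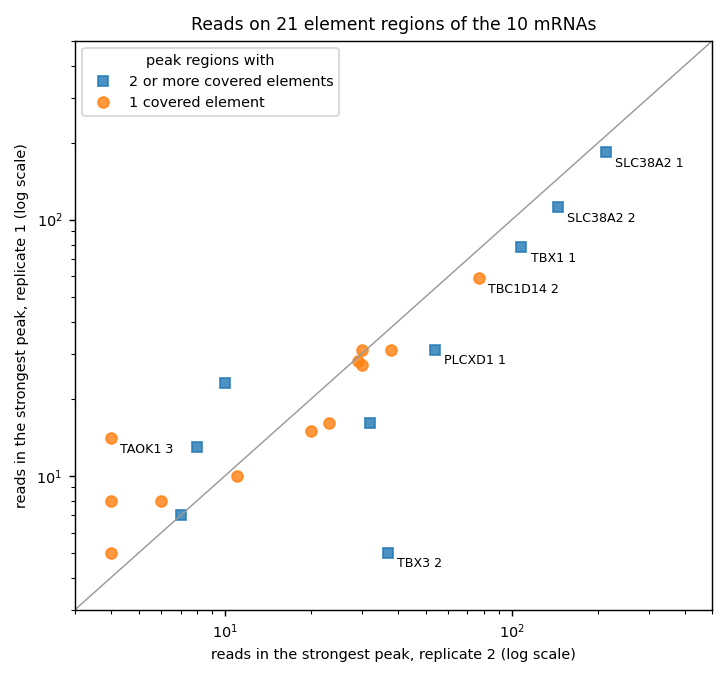
Reads in the strongest peak of each of the 21 regions in replicate 1 (vertical axis) against replicate 2 (horizontal axis), both on a log scale. Blue squares are regions with 2 or more covered elements, orange circles are regions with 1, and the line marks equal reads. TBX3 region 2, with 5 and 37 reads, lies farthest from the line, and both SLC38A2 regions lie at the upper end.

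Covered and uncovered elements of the 10 mRNAs were set side by side by position, spacing, variable base and base composition. The 36 covered elements had a median distance of 15.5 nt to the nearest other element, and 24 of them had one within 35 nt. The 8 elements under no peak had a median of 53 nt, and 3 of them had a neighbour within 35 nt. The centre of a covered element lay at a median of 70.7% of the 3′ UTR and the element 617 nt before its end. For elements under no peak the medians were 30.9% and 5195 nt. In PLCXD1 the order was the reverse, with elements under no peak 2658 to 2854 nt before the end and covered ones 2920 to 2972 nt. All 8 elements under no peak belong to PLCXD1, XIAP and TAOK1, which also held covered elements, so the differences in spacing and position are in part differences between mRNAs. Their 3′ UTRs were 4021, 6798 and 8882 nt long. CEP97, with 5011 nt, had all of its elements covered. The variable base was A in 10, C in 5, G in 6 and U in 15 of the covered elements, against C in 1 and U in 7 of those under no peak. These counts follow in part from how the mRNAs were chosen. The 20 nt on either side of an element held a median of 67.5% A and U (range 42.5 to 82.5) for covered elements and 68.8% (range 62.5 to 77.5) for those under no peak. These medians were close as well. TBX1 gave the low end of the covered range.

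The same properties were counted in the other mRNAs. Leaving out the 10 took covered elements from the classes with neighbours and none from lone elements, so shares over all mRNAs are given as well. Their covered elements lay a median of 591 nt before the end of the 3′ UTR, against 1185 nt for elements not covered, while the relative position was 56.1% and 56.0%. The 3′ UTRs of these elements had a median length of 1851 nt and 3297.5 nt in the same order. Elements not covered here include 516 that lay under a peak of 1 library. An element with another element 8 to 35 nt away was covered in 25.5% of 302 cases (exact 95% interval 20.7 to 30.8), and one with its nearest neighbour 36 to 100 nt away in 30.1% of 266 (24.6 to 36). Over 100 and up to 400 nt away the share was 20.8% of 562 (17.5 to 24.4), and beyond 400 nt it was 13.7% of 1192 (11.8 to 15.8). For the only element of a 3′ UTR it was 27.5% of 1420 (25.2 to 29.9). With the 10 mRNAs included, the shares were 30.5%, 30.1%, 21.8% and 13.9% from the closest to the farthest class. The class beyond 400 nt had the lowest share with and without them, while the closest class was below lone elements without them and above with them, with overlapping intervals (25.6 to 35.8 with them). The median 3′ UTR was 2833 nt for the closest class, 4596 nt beyond 400 nt and 2082 nt for lone elements, and the part of 3′ UTR length in these shares was not tested.

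By variable base, the covered share in the other mRNAs was 31.1% of 376 elements with G (26.5 to 36.1), 24.6% of 1370 with A (22.3 to 27.0), 21.7% of 759 with C (18.9 to 24.9) and 16.9% of 1237 with U (14.9 to 19.1). The intervals of G and U, of G and C and of A and U did not overlap, while those of the other pairs did. No test of the base was made, and elements are not replicates. With the 10 mRNAs included, the shares were 32.2% for G, 25.1% for A, 22.2% for C and 17.8% for U. In the 10 mRNAs all 6 elements with G, all 10 with A, 5 of 6 with C and 15 of 24 with U were covered. These counts follow in part from how the mRNAs were chosen and are not evidence about the base. TBX1, with a single region, gave 4 of the 6 elements with G. The U elements of PLCXD1 made up 8 of those 24.

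**Figure D4:**
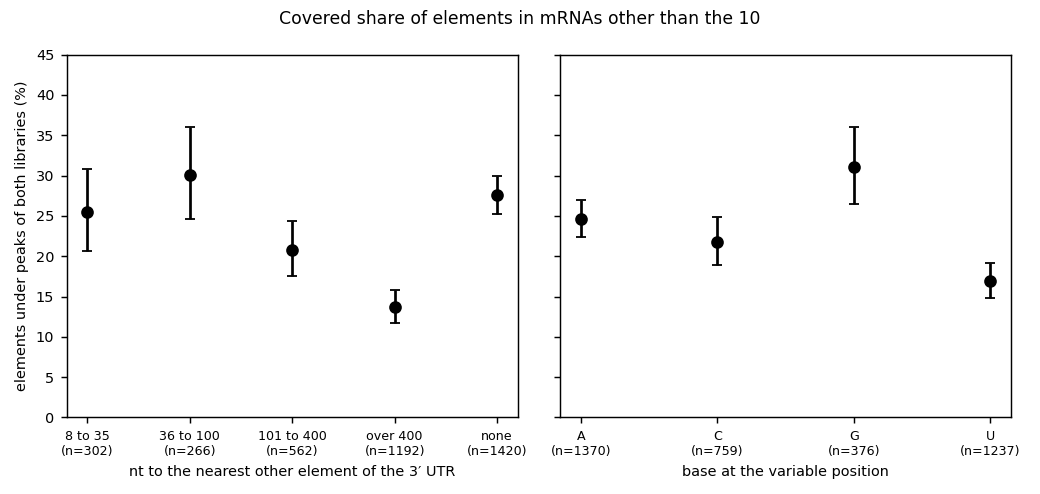
Share of Pumilio elements under peaks of both libraries in mRNAs other than the 10, by distance to the nearest other element of the 3′ UTR (left) and by the base at the variable position (right). Points are percentages, bars are exact 95% binomial intervals and n is the number of elements. Elements whose nearest neighbour lay over 400 nt away had the lowest share on the left, 13.7%, and elements with U had the lowest on the right, 16.9%.

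The share of 3′ UTR peak reads on elements was taken in the 10 mRNAs, which were chosen on peaks over elements, so that a high share is a description and no finding. Peaks that touched an element by at least 1 nt, counted whole, held 64.9% of 3′ UTR peak reads in replicate 1 and 61.5% in replicate 2, a mean of 63.2% ± 2.4 (SD, n = 2). TBX1 and CCDC12 had all of their 3′ UTR reads in such peaks in replicate 1, and 92.3% and 80.0% in replicate 2. SLC38A2 had 66.3% and 67.5% of 445 and 529 reads on elements, and PLCXD1 had 73.8% and 72.3% of 42 and 83 reads. CEP97 had the lowest share in replicate 1, 36.4%, and 25.4% in replicate 2. The libraries differed most for TAOK1, with 68.2% of 44 reads in replicate 1 and 18.2% of 77 reads in replicate 2, in which its 3′ UTR carried 20 peaks instead of 7.

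Of the 37 3′ UTR regions that the 10 mRNAs had under peaks of both libraries, 21 held an element, a count that follows from how the mRNAs were chosen. In the other mRNAs it was 910 of 11241 regions, or 8.1%, all searched on the RNA strand. The 21 regions had a median of 16 reads in replicate 1 and 29 in replicate 2, against 9.5 and 9 reads in the 16 regions without an element. In the other mRNAs, regions with an element had a median of 9 and 11 reads and regions without one 8 and 9 reads. Regions with an element were also wider. Their median width was 79 nt against 43.5 nt in the 10 mRNAs, and 55 nt against 44 nt in the other mRNAs. The part of width in these reads was not tested. The regions without an element included the region of MFSD14A with 41 and 48 reads, a region of XIAP at chrX:123907626-123907697 with 21 and 31 reads, and a region of CEP97 at chr3:101770388-101770474 with 13 and 23 reads. In CEP97 this region had as many reads in replicate 1 as the strongest region on an element. In TAOK1 the strongest 3′ UTR peak of replicate 2, with 8 reads, touched no element and had no counterpart in replicate 1.

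**Figure D5:**
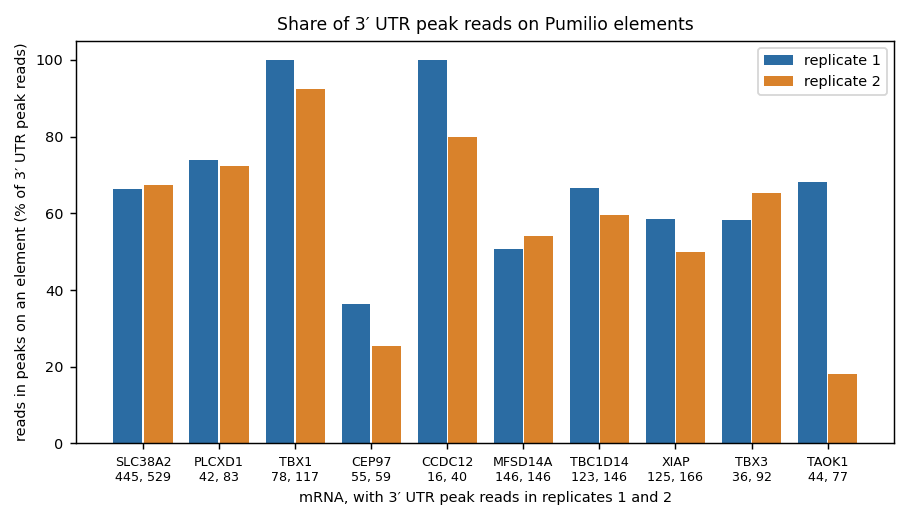
Percentage of the 3′ UTR peak reads of each of the 10 mRNAs that lay in peaks on a Pumilio element, in replicate 1 (blue) and replicate 2 (orange), with the 3′ UTR reads of each library under the name. The share is above 50% in both libraries for 7 of the 10 mRNAs, is 50% in replicate 2 for XIAP, and is 18.2% in replicate 2 for TAOK1.

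Peak reads outside the 3′ UTR were not used in the choice of members and show how strongly each mRNA was represented elsewhere. The 10 mRNAs had a median of 40.5 such reads in replicate 1 and 54.5 in replicate 2, against 21 and 27 over all protein-coding genes with a peak. The medians were also 21 and 27 in the other 311 mRNAs with 3 or more elements. In the CDS alone the 10 mRNAs had 30.5 and 41.5 reads, against 13 and 18 over all those genes and 13 and 19 in the 311 mRNAs. With the 3′ UTR, on which they were chosen, the 10 mRNAs had a median of 130.5 and 191 reads. SLC38A2 was the strongest, with 689 and 871 reads, of which 180 and 232 lay in the CDS and 64 and 110 in the 5′ UTR. Totals were lowest for TAOK1 in replicate 1, with 70 reads against 119 in replicate 2, and for CEP97 in replicate 2, with 103 reads against 95 in replicate 1. TBX3 had 77 and 191 reads, of which 31 and 65 lay in the 5′ UTR. XIAP had 125 of 134 reads and 166 of 191 reads in its 3′ UTR and only 6 and 25 in the CDS. With no input library, RNA level and association cannot be told apart, and in bulk RNA fewer cells and less RNA per cell cannot be told apart.

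The members' 3′ UTRs were dense in elements, with a median of 1.94 per kb, against 0.807 per kb in the other 311 mRNAs with 3 or more elements and 0.583 per kb in all 2314 other mRNAs with an element. The choice of mRNAs with 3 covered elements favours such density. CCDC12 and TBX1 had 9.06 and 8.57 per kb, and XIAP had the fewest, 0.736 per kb. Their median length was 2821 nt, against 4453 nt for the other mRNAs with 3 or more elements. The share of the 3′ UTR under peaks of both libraries ran from 1.85% in TAOK1 to 22.1% in MFSD14A. Not every annotated isoform carries the elements. Among protein-coding transcripts with a complete 3′ end, all elements were in the 3′ UTR of each annotated transcript of CCDC12, MFSD14A, TBC1D14, XIAP and TBX3. The elements were in 1 of 2 transcripts of SLC38A2 and of CEP97, in 2 of 3 of PLCXD1 and in 2 of 4 of TBX1. In TAOK1 both transcripts held element 1, and 1 of 2 held elements 2 to 7, which include the 3 covered ones. Which isoforms these cells expressed was not tested.

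Values just outside the threshold and mRNAs beyond the list were described in the same way. MRPL50, CD58, KLF15 and SDAD1 also had 3 covered elements by the definition used here. MRPL50, which encodes a protein of the mitochondrial ribosome, had 10 elements and peaks of at most 6 and 8 reads on the covered ones. CD58, a cell adhesion molecule, had 13 and 17 reads, the transcription factor KLF15 had 8 and 8, and SDAD1 had 24 and 41. Exactly 2 covered elements were found in 82 mRNAs. Of these, HOXA13 had 5 elements, with 45 and 51 reads on the strongest. SLC38A1, a transporter of the same family as SLC38A2, had 4 elements and a covered pair 12 nt apart, with 61 and 71 reads. KCTD12 had 22 reads in each library. TRAPPC10 and FP565260.6 had the same 17 and 31 reads and 3′ UTRs of 3021 and 3022 nt, so reads of the 2 entries may not be separable.

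A Pumilio gene, partner genes and mRNAs known as Pumilio targets were set beside the 10. PUM2, which encodes a Pumilio protein, had 2 elements, with 0 covered. NORAD had 7 of its 15 elements covered over the whole transcript. E2F3, a cell cycle transcription factor, had 1 of 2 covered with 40 and 82 reads, CDKN1B, an inhibitor of the cell cycle, had 1 of 2 with 12 and 15, and the kinase MAPK14 had 1 of 2 with 12 in each. ATXN1 had 1 element, not covered, and NANOS1 and NANOS3 had no 3′ UTR peak in both libraries. Among PUM2, E2F3, CDKN1B, MAPK14 and ATXN1, none had more than 1 covered element in its 3′ UTR, and none had more than 2 elements. Of all 583 mRNAs with 2 elements, 360 had 0 covered, 173 had 1 and 50 had 2, so this is no contrast with the 10. These lists were drawn up with earlier results of these libraries known.

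Replicate 1 held 96682 distinct peaks with a median of 6 reads and replicate 2 held 105125, also with a median of 6. Markers of HEK293 cells were present, with 83 and 139 peak reads for NEFL, 75 and 68 for NEFM and 10 and 16 for PAX2. ALB, APOA1, PTPRC, HBB, COL1A1 and COL1A2, markers of liver, blood and fibroblasts, had 0 peak reads in each library. The nuclear RNAs MALAT1 and NEAT1 had 1096 and 821 and 267 and 235 peak reads, although the labels give cytoplasmic RNA, and their part in the results was not tested.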

How the data were processed

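The deposited files hold a peak list for each of 2 libraries, called separately. Reads were handled with STAR 2.7.11, UMI-tools 1.1.4 and cutadapt 4.2 on GRCh38, per the submitters' processing notes, which state no roles. File names point to CLIPper peaks from reads filtered by mismatches, alignment score and how many loci they matched. No CLIPper version is given in the sources used here. For each peak the authors deposited a p-value, all under 0.05. Each peak name carries a read count that is not normalised and is at least 3. A read may count in several peaks, so sums over peaks are not sequencing depth, which is unknown.

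Gene models and transcript sequences came from GENCODE release 29. A representative transcript per gene was the APPRIS principal, basic one with the longest CDS, then the longest transcript. UGUANAUA was searched in each 3′ UTR on the RNA strand, and peaks under the gene's own identifier on its strand were intersected with it. The windows of 30 nt shown had no copy in another gene's protein-coding transcripts or NORAD. No test was made, because there is 1 group without a control and the members were chosen on the outcome. Intervals are exact binomial (Clopper-Pearson, 95%). The 10 members, the pathway list and the marker list were chosen with earlier results of these data known. The genes named are the members, other genes with at least 3 covered elements, the 5 genes with 2 covered elements that had the most elements, and the genes of the 2 lists, of which some are not reported here. Of the peaks listed under members, 3 in replicate 1 and 1 in replicate 2 had the same position as a peak listed under another gene. The search was tested on simulated data in which peaks matched whole elements, so partial overlap and abutting elements were not tested. The work used Python 3.11.15 with scipy 1.17.1, pandas 2.3.3, matplotlib 3.10.9 and numpy 2.4.6. Alternatives were the overlap, stricter peaks, each library alone, the longest 3′ UTR, other motifs and other neighbour distances, and 2 were added after seeing the data, wider peaks and a count of separate regions.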

Additional observations from a re-analysis of the deposited data

How the results depend on the processing

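All 10 mRNAs kept at least 3 covered elements when all 8 nt had to be covered, with either library alone, the longest 3′ UTR, the core UGUANAU or, an alternative chosen after seeing the data, peaks widened by 15 nt. With peaks at p at or under 1e-05, or of at least 10 reads, CEP97, TBX3 and TAOK1 dropped below 3, and genes with 3 or more fell to 8 in each case. When each region was counted once, also chosen after seeing the data, 3 mRNAs had 3 or more.

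Covered shares are given for all mRNAs, for other mRNAs, and within those for elements with and then without a neighbour within 100 nt. By the definition used they were 22.8%, 22.1%, 27.6% and 21.1%. With all 8 nt they were 20.1%, 19.4%, 23.1% and 18.7%. At p at or under 1e-05 they were 24.8%, 24.0%, 31.4% and 22.7%, and with at least 10 reads 25.6%, 24.5%, 33.3% and 23.0%. Only elements of genes that kept a 3′ UTR peak in each library were counted, so these shares are of fewer elements. In all mRNAs, 495 of 1993 elements were covered at the p threshold and 402 of 1573 with 10 reads, against 864 of 3788 by the definition used. With either library alone they ran from 26.7% to 29.2%, 26.2% to 28.7%, 32.2% to 33.8% and 25.1% to 27.8%. The elements counted in all mRNAs were then 4098 with replicate 1 alone and 4223 with replicate 2 alone. With the core they were 17.2%, 17.0%, 24.1% and 14.5%, and 61 genes had 3 or more. With wider peaks they were 26.7%, 26.0%, 33.3% and 24.7%.

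The median spacing of 23 nt became 18 nt with all 8 nt, 14 nt at the p threshold, 15.5 nt with 10 reads, 28 nt with wider peaks and 23 to 28.5 nt with either library alone. The read share of 63.2% became 68.7%, 70.3% and 67.2% with the p threshold, 10 reads and the core. The reversed element had 21 copies in the 10 mRNAs, of which 8 were covered. These were 4 in PLCXD1 and 1 each in TBX1, CEP97, CCDC12 and TAOK1. Its covered share was 6.58% in all mRNAs and 6.32% in other mRNAs. It gave 1 mRNA and 1 gene with 3 or more covered copies, and 14.4% of reads. Some settings changed the set of elements counted, as given above, and the cause of these shifts was not tested. No paired analysis was possible because there is a single group. Peaks under 3 reads are not listed, so an uncovered element may still have had reads.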
